A study of Mus musculus with 48 samples.

Results

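Serpins are serine protease inhibitors, a family of proteins named here by every gene symbol that begins with Serpin. Each of the 3 deposited count tables listed 63 such genes, and 27 had at least 10 reads in 3 or more libraries of a table. That minimum was met by 23 serpins in the table of ventricles at 8 weeks, 24 in the table of ventricles at 20 weeks and 27 in the table of purified cells, and 23 met it in all 3. They were measured by RNA sequencing in 48 libraries from hearts of FVB mice, an inbred strain, in 16 groups of 3. The PLNR9C animals carry a mutant phospholamban, in the published line as a transgene under the cardiomyocyte alpha-myosin heavy chain promoter. Phospholamban is the brake on calcium uptake into the sarcoplasmic reticulum of heart muscle, and this mutation is known from inherited dilated cardiomyopathy (DCM). JQ1 is a small-molecule inhibitor of BET bromodomain proteins, readers of acetylated histones.

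The groups were PLNR9C with JQ1, PLNR9C with vehicle, wild type (WT) with JQ1 and WT with vehicle, in each of 4 experiments. Those were whole left ventricle (LV) at 8 weeks of age, labelled preDCM, whole LV at 20 weeks, labelled DCM, and pooled cardiomyocytes and pooled cardiac non-myocytes, both at 16 weeks and labelled DCM. These stage labels stand on the WT libraries as well as on the PLNR9C ones. JQ1 was given at 50 mg/kg. The labels call the 3 libraries of a group biological replicates and do not give the number of animals in a pool, the schedule of dosing or the construct behind the mutant allele, so p-values measure the spread between these libraries. Libraries of ventricle held 16984138 to 27086694 reads at 8 weeks and 18415351 to 26730918 at 20 weeks. Those of cells were shallower, with 10249780 to 13146653 reads for cardiomyocytes and 10041094 to 11815003 for non-myocytes. Levels below are counts relative to library size (CPM), scaled by trimmed mean of M values (TMM). A change is a log2 fold change with its standard error (SE). Its p comes from edgeR (quasi-likelihood) with Benjamini-Hochberg adjustment across every gene tested in that experiment, and a gene is said to rise or fall where the adjusted p is under 0.05.

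Most serpins trap a protease by offering a reactive loop as bait, after which the inhibitor and the enzyme stay bound and are cleared. Some members have lost this function: Serpinf1 encodes pigment epithelium-derived factor, a secreted protein that inhibits no protease, and Serpinh1 encodes Hsp47, a chaperone of procollagen in the endoplasmic reticulum. In the heart the family meets the enzymes of clotting, of fibrin breakdown, of complement and of leukocyte granules. The Serpina3 genes are rodent expansions of the gene that in humans encodes alpha-1-antichymotrypsin, an acute phase protein of the blood, and they lie side by side on mouse chromosome 12.

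The Serpina3 copies are alike enough that their counts are uncertain. Over aligned coding bases, Serpina3n was 85.4% identical to Serpina3c, 85.2% to Serpina3m, 85.0% to Serpina3i and 84.6% to Serpina3f, and 78.5% to Serpina3a. Other pairs were closer, at 91.4% for Serpina3k with Serpina3m and 91.2% for Serpina3f with Serpina3i. Of all runs of 50 bases in the longest annotated transcript, 24.4% of those of Serpina3h also occurred in another serpin, against 19.1% for Serpina3m, 16.0% for Serpina3g and 6.9% for Serpina3n. The deposited gene model of Serpina3g spans the whole of Serpina3f, that of Serpina3h overlaps Serpina3g, and that of Serpina3m overlaps Serpina3k, all on the same strand, so reads there may be shared or lost. Serpina3h is annotated as a transcribed unprocessed pseudogene in GENCODE M21. The 60 coding bases in which the copies below differ most, by a mean of 20.3 bases between pairs, are printed from the mouse genome (GRCm38). They show what tells these copies apart, with capitals at the bases that differ from Serpina3n. Serpina3h, which has no coding model, and Serpina3g, whose coding sequence is shorter, were left out.
Serpina3n (chr12:104413510-104413569, plus strand): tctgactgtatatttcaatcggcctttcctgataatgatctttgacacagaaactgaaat
Serpina3a (chr12:104121416-104121475, plus strand): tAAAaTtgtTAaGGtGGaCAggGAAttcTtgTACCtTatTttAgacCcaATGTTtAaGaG
Serpina3c (chr12:104147275-104147334, minus strand): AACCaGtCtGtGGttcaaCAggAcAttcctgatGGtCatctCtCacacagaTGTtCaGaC
Serpina3f (chr12:104220310-104220369, plus strand): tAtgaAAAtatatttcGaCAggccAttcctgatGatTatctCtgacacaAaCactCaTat
Serpina3i (chr12:104268542-104268601, plus strand): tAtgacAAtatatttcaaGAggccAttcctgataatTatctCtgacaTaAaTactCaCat
Serpina3k (chr12:104345325-104345384, plus strand): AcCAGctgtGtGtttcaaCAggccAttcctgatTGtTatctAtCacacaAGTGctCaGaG
Serpina3m (chr12:104393831-104393890, plus strand): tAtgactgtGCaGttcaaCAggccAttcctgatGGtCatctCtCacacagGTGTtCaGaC
In that stretch Serpina3i differed from Serpina3n at 13 bases and Serpina3f at 15, while Serpina3a differed at 32.

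The results turn most on the Serpina3 genes, so the 250 bases before the annotated starts of 4 of them are shown from the RefSeq promoter table (GRCm38.p6). Of the 27 serpins, 21 matched that table. Capitals mark the letters TTCNNNGAA, the core of sites bound by STAT factors, and also a TATA box (TATAAA, read on the other strand) in Serpina3f and a CCAAT box (read on the other strand) in Serpina3i.
Serpina3f (chr12:104214294-104214543, plus strand): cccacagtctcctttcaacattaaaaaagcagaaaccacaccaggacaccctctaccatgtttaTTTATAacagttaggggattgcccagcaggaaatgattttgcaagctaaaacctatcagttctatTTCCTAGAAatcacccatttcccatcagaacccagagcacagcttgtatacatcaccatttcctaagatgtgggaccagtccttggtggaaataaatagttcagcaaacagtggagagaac
Serpina3g (chr12:104235897-104236146, plus strand): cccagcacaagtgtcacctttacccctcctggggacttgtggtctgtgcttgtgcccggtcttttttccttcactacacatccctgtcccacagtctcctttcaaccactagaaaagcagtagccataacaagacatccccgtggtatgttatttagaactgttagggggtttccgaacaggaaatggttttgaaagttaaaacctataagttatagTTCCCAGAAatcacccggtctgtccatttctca
Serpina3i (chr12:104262872-104263121, plus strand): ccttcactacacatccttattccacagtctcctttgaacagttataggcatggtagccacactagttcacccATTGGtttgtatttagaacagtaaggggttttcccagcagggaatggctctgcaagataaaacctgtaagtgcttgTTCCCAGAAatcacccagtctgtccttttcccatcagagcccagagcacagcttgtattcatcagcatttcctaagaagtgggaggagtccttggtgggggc
Serpina3n (chr12:104406458-104406707, plus strand): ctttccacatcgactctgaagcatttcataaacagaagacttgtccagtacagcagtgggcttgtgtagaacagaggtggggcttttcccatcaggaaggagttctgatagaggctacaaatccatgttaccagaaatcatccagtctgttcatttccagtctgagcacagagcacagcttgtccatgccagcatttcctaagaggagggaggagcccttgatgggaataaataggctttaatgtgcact
The STAT letters began at position -121 from the annotated start in Serpina3f, -33 in Serpina3g and -102 in Serpina3i, and did not occur in the window of Serpina3n. Counted by gene over all matched promoters, they occurred in 3 of 6 Serpina3 genes and in 1 of 15 other serpins, Serpinb6a (-77). The sites of Serpina3f, Serpina3g and Serpina3i are each followed by the letters atcaccc in neighbouring gene copies, so they are not independent occurrences. Serpina3a and Serpina3c had none. A second Serpina3f promoter overlaps the first and holds the same site, which lies at -210 from its own start. Searched on both strands, they occurred in 7.18% of 27025 promoters of that length, the TATA letters in 13% and the CCAAT letters in 34.5%. That background took 1 promoter per gene. The Serpina3g window lies inside the deposited Serpina3g model, which begins at the start of Serpina3f.

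Most serpins tested, with each Serpina3 copy counted, were higher in PLNR9C than in WT hearts with vehicle, in all 4 experiments. With vehicle at 8 weeks, 14 of the 22 serpins tested rose in PLNR9C and 0 fell, where 14.4% of all genes tested passed in either direction, 7.86% rising and 6.5% falling; the count was 9 without PLNR9C vehicle replicate 2. At 20 weeks 18 of 24 rose and 0 fell, against 44.7% of all genes passing and 23.3% rising and 21.4% falling. In cardiomyocytes 16 of 21 rose and 0 fell, against 26.1% passing and 14.3% rising and 11.8% falling. In non-myocytes 13 of 25 rose and 2 fell, against 18.6% passing, 10.3% rising and 8.32% falling. The median log2 fold change of the serpins tested was 0.76, 1.48, 1.94 and 0.96 in these experiments, taken in the order above, where that of all genes tested lay between -0.01 and 0.01. Between JQ1-treated PLNR9C and WT ventricles 9 of 22 serpins rose at 8 weeks and 0 fell (5.96% of all genes passing, 3.43% higher and 2.54% lower). At 20 weeks 18 of 24 rose and 0 fell (39.1% of all genes passing, 20.8% higher and 18.3% lower). Between JQ1-treated cardiomyocytes 13 of 21 rose and 0 fell (25.9% of all genes passing, 13.6% higher and 12.3% lower), and between JQ1-treated non-myocytes 11 of 25 rose and 2 fell (18.6% of all genes passing, 9.24% higher and 9.38% lower). The count at 8 weeks was 5 without PLNR9C JQ1 replicate 2 or without WT JQ1 replicate 3. Many of these rises were in Serpina3 copies, whose counts are not independent. Among the other serpins, with vehicle, 6 of 14 rose at 8 weeks and 10 of 16 at 20 weeks. In cardiomyocytes 8 of 13 of them rose, and in non-myocytes 4 of 16 rose and 2 fell. With JQ1 the rises were 1 of 14, 10 of 16, 5 of 13 and 4 of 16 in the same order, with 2 falls in non-myocytes.

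The calls made with JQ1 were mostly downwards. In PLNR9C hearts 5 of 22 serpins fell with JQ1 at 8 weeks and 0 rose, with 33.1% of all genes passing, 15.5% higher and 17.7% lower. At 20 weeks 5 of 24 fell and 1 rose (31.9% of all genes passing, 15.9% higher and 16.1% lower), in cardiomyocytes 3 of 21 fell (10.5% of all genes passing, 6.14% higher and 4.33% lower) and in non-myocytes 5 of 25 fell (36.2% of all genes passing, 16.7% higher and 19.5% lower), with 0 rising in both fractions. In WT hearts 3 fell and 1 rose at 8 weeks (29.8% of all genes passing, 14.3% higher and 15.4% lower), 11 of 24 fell at 20 weeks (27.2% of all genes passing, 12.3% higher and 14.9% lower), 0 of 21 passed in cardiomyocytes (3.63% of all genes passing, 1.7% higher and 1.93% lower) and 4 of 25 fell in non-myocytes (38% of all genes passing, 18% higher and 20% lower). For the 0 in WT cardiomyocytes, 2 serpins had an unadjusted p under 0.05 in edgeR and DESeq2 also called 0. These shares lay below those of all genes in 6 of the 8 comparisons, the exceptions being WT ventricles at 20 weeks (45.8%) and PLNR9C cardiomyocytes (14.3%), so the counts elsewhere say nothing particular to serpins. The counts leaned on single libraries: at 8 weeks in PLNR9C the count was 2 without JQ1 replicate 2 or vehicle replicate 1 or 2 and 3 without JQ1 replicate 1 or 3, at 20 weeks in WT it was 6 without JQ1 replicate 2 and 7 without vehicle replicate 1, in PLNR9C cardiomyocytes it was 7 without JQ1 replicate 1, and in WT non-myocytes it was 2 without JQ1 replicate 1 and 1 without JQ1 replicate 2 or vehicle replicate 1.

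**Figure D1:**
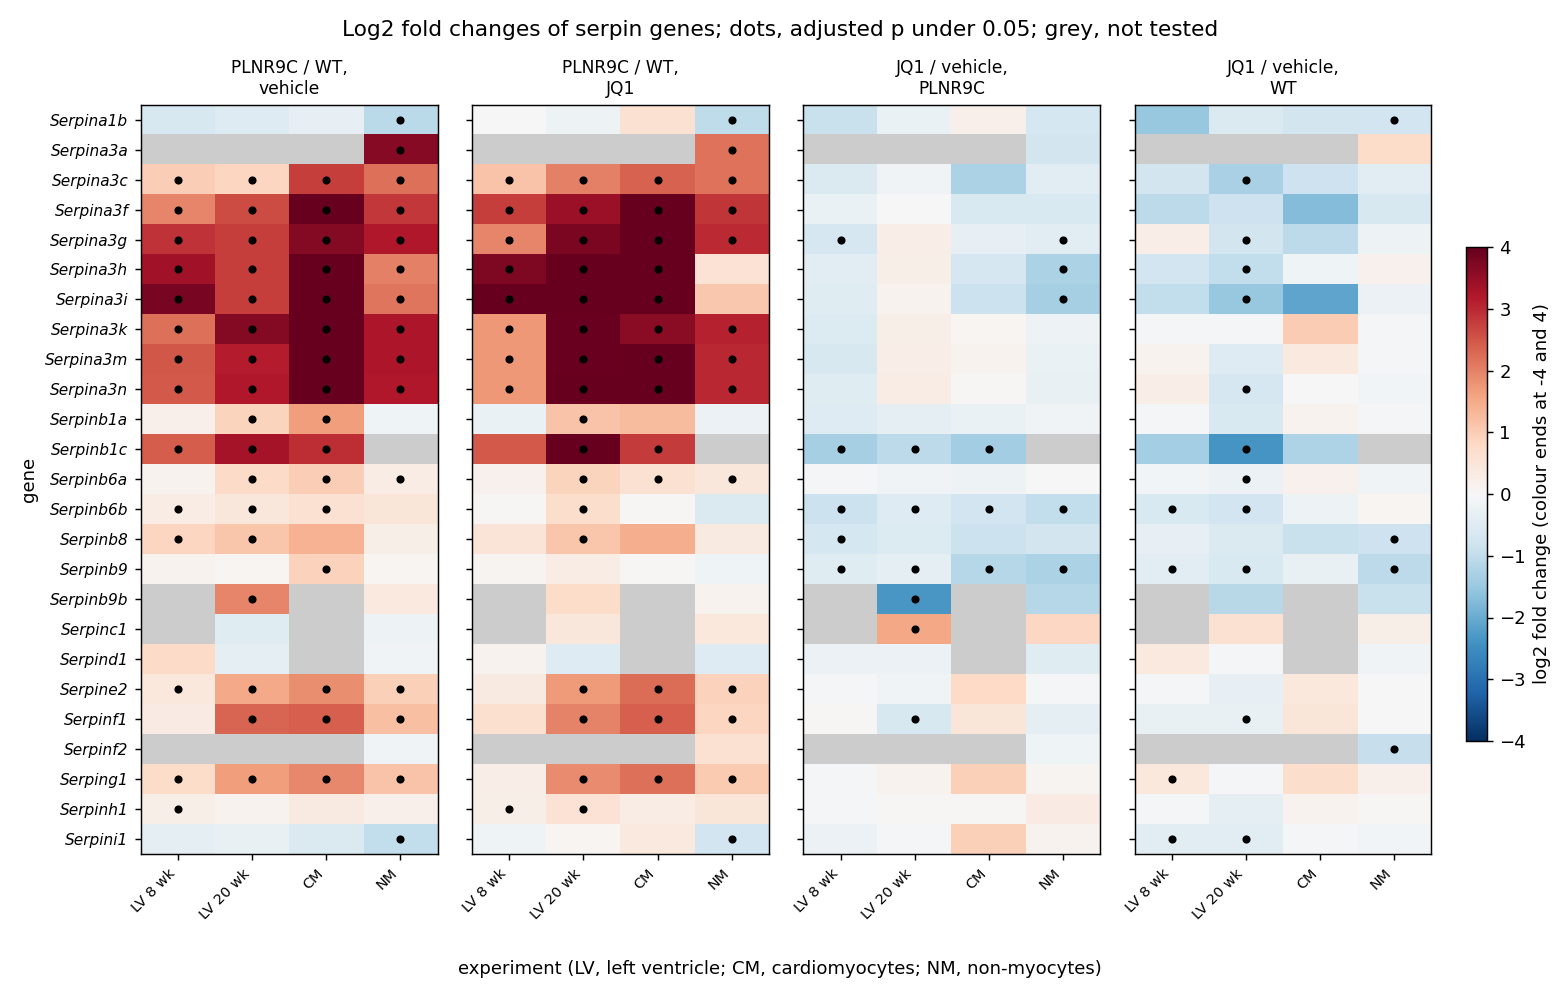
Log2 fold changes of tested serpins, with genes as rows and the 4 experiments as columns in each of 4 comparisons, colour from blue (lower) to red (higher), dots where the adjusted p was under 0.05 and grey where a gene was not tested. The block of Serpina3 genes is red in both comparisons of PLNR9C with WT, and Serpinb6b and Serpinb9 carry dots in all 4 experiments for JQ1 in PLNR9C.

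Serpina3n, the copy best known as an inhibitor of granzyme B and leukocyte elastase, had the most reads of the Serpina3 genes in every library. At 8 weeks it had 104, 138 and 76.04 CPM in PLNR9C ventricles with JQ1, 127, 196 and 120.2 CPM in PLNR9C ventricles with vehicle, 30.5, 38.7 and 26.6 CPM in WT ventricles with JQ1 and 17.8, 35.9 and 25.9 CPM in WT ventricles with vehicle. At 20 weeks the 4 groups in the same order had 478, 467 and 449, then 466, 299.6 and 377, then 26.2, 25.9 and 26.4, then 36.4, 39.8 and 48.4 CPM. At both ages the lowest PLNR9C ventricle was above the highest WT ventricle. With vehicle the log2 fold change was 2.46 ± 0.34, adjusted p = 0.0019, at 8 weeks and 3.20 ± 0.14, adjusted p = 4.9e-10, at 20 weeks, which is 5.51-fold and 9.18-fold. With JQ1 it was 1.74 ± 0.33, adjusted p = 0.019, at 8 weeks and 4.15 ± 0.15, adjusted p = 1.9e-10, at 20 weeks. The call with JQ1 at 8 weeks was lost without PLNR9C JQ1 replicate 2 (1.499), WT JQ1 replicate 1 (1.71) or WT JQ1 replicate 3 (1.62). The 2 ages stand in tables normalised apart, so the difference between ages was not tested.

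In purified cells Serpina3n was higher in PLNR9C in both fractions. Cardiomyocytes had 217, 381 and 303 CPM in PLNR9C with JQ1 and 314, 221 and 341 CPM in PLNR9C with vehicle, against 9.68, 16.7 and 23.1 CPM in WT with JQ1 and 10.3, 13.9 and 24.6 CPM in WT with vehicle. Non-myocytes had 1388, 1916 and 2048 CPM in PLNR9C with JQ1 and 2343, 1581 and 2651 CPM in PLNR9C with vehicle, against 159, 230.1 and 274 CPM in WT with JQ1 and 186, 213 and 309.8 CPM in WT with vehicle. The genotypes did not overlap in either fraction. With vehicle the log2 fold change was 4.17 ± 0.39, adjusted p = 4.2e-05, in cardiomyocytes and 3.21 ± 0.28, adjusted p = 1.7e-05, in non-myocytes. Markers of other cells moved with genotype. All 8 fibroblast markers were detected in cardiomyocytes, with a summed level of 1014 to 1265 CPM in PLNR9C with vehicle and 396 to 476 CPM in WT with vehicle. The 8 macrophage markers present in the tables, of 9 listed and all detected, summed to 218 to 284 CPM in PLNR9C cardiomyocytes with vehicle against 37.1 to 50.4 CPM in WT, and to 3706 to 4459.9 CPM in PLNR9C non-myocytes against 1381 to 1619 CPM in WT. In ventricle they summed to 584 to 804 CPM in PLNR9C with vehicle and 195 to 225 CPM in WT at 20 weeks, with cardiomyocyte markers at 37810.0 to 42777 against 70730.0 to 81440.0 CPM and fibroblast markers at 3778 to 4191 against 2047 to 2109 CPM, all 8 called higher. At 8 weeks macrophage markers summed to 468 to 518 CPM in PLNR9C with vehicle and 171 to 219 CPM in WT, all 8 called higher. Of all genes tested 23.3% rose in PLNR9C ventricles with vehicle at 20 weeks and 7.86% at 8 weeks. The part of these cells in the serpin levels was not tested, and in whole tissue fewer cells of a type and less RNA per cell cannot be told apart. The 8 hepatocyte markers, relevant because Serpina3 proteins are made in liver, summed to at most 1.83 CPM in any library, with 3 to 6 of the 8 at 0 in every library of a group.

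**Figure D2:**
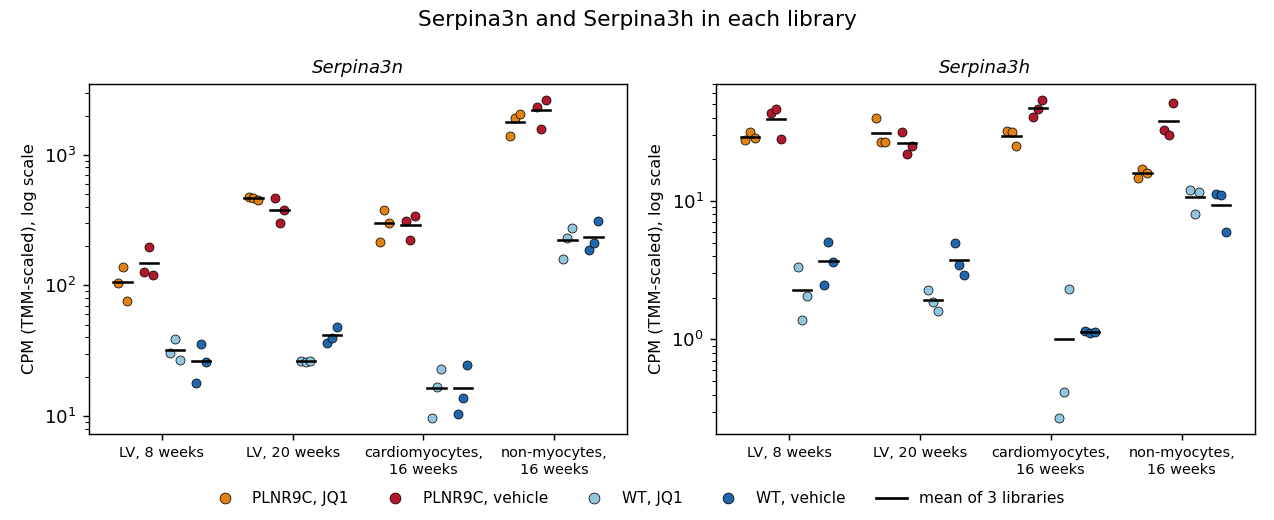
Level of Serpina3n and Serpina3h in each library (points, TMM-scaled CPM on a log axis) by experiment and group, with lines at the mean of 3 libraries. All PLNR9C libraries lie above WT libraries for both genes, and Serpina3h reaches 54.00 CPM in PLNR9C cardiomyocytes with vehicle, while its WT cardiomyocytes with vehicle lie at 1.12 to 1.15 CPM.

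The other Serpina3 copies rose with Serpina3n. With vehicle, 8 of 8 tested copies rose at 8 weeks, with log2 fold changes between 1.000 and 3.79, 8 of 8 at 20 weeks, between 0.85 and 3.67, 8 of 8 in cardiomyocytes, between 2.77 and 5.36, and 9 of 9 in non-myocytes, between 2.00 and 3.64. Of all genes 7.86%, 23.3%, 14.3% and 10.3% rose in these comparisons, taken in the same order. The copies may share reads, so the counts of copies are not treated as independent. With reads of all Serpina3 genes summed, the log2 fold change was 2.60 ± 0.29 at 8 weeks (adjusted p = 0.00075) and 3.10 ± 0.13 at 20 weeks (adjusted p = 5.5e-11). The summed value was 4.23 ± 0.37 in cardiomyocytes (adjusted p = 2.8e-05) and 3.17 ± 0.26 in non-myocytes (adjusted p = 1.1e-05). Serpina3g, whose product inhibits lysosomal cysteine cathepsins, had 15.3, 11.5 and 11.4 CPM in PLNR9C ventricles with vehicle at 20 weeks and 2.08, 1.33 and 2.23 CPM in WT ventricles with vehicle. At 8 weeks it had 6.88, 8.65 and 6.75 CPM in PLNR9C and 0.4697, 1.64 and 0.746 CPM in WT. Its log2 fold change with vehicle was 2.89 ± 0.28 at 8 weeks and 2.77 ± 0.18 at 20 weeks. Cardiomyocytes gave 3.66 ± 0.31 and non-myocytes 3.20 ± 0.17. The value at 8 weeks was 3.58 without WT vehicle replicate 2, the WT library with the most Serpina3g. Serpina3m had 139.7, 89.9 and 150.1 CPM in PLNR9C non-myocytes with vehicle and 10.1, 12.5 and 17.8 CPM in WT non-myocytes. Serpina3m in cardiomyocytes rose by 4.33 ± 0.53 on the log2 scale, and by 5.002 without WT vehicle replicate 3. Serpina3k, whose product binds tissue kallikrein, had 29.8, 19.3 and 29.8 CPM in PLNR9C non-myocytes with vehicle against 2.84, 2.88 and 2.57 CPM in WT. Serpina3c rose by 0.85 ± 0.21 and Serpina3f by 2.60 ± 0.32 on the log2 scale in ventricles at 20 weeks. Serpina3a, tested between genotypes in non-myocytes only, had 1.74, 1.27 and 1.702 CPM in PLNR9C with vehicle and 0.0887, 0.0847 and 0.172 CPM in WT, so its fold change rests on few reads.

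Serpina3h rose in PLNR9C in both cell fractions with vehicle, and by more in cardiomyocytes. With vehicle, PLNR9C cardiomyocytes had 40.7, 46.4 and 54.00 CPM and WT cardiomyocytes 1.15, 1.12 and 1.14 CPM, a log2 fold change of 5.36 ± 0.41, adjusted p = 1.1e-05. In ventricles it had 43.4, 45.9 and 28.1 CPM in PLNR9C and 2.47, 5.04 and 3.63 CPM in WT at 8 weeks, and 31.3, 21.9 and 24.7 CPM in PLNR9C and 4.93, 3.42 and 2.94 CPM in WT at 20 weeks. Non-myocytes had 32.8, 29.8 and 50.8 CPM in PLNR9C and 11.2, 11.1 and 6.005 CPM in WT, a log2 fold change of 2.00 ± 0.25, adjusted p = 0.00019. The genotypes overlapped in none of these, and the step between them was wider in cardiomyocytes. In the fit of all 24 cell libraries the genotype effect in cardiomyocytes exceeded that in non-myocytes by 3.31 ± 0.49 on the log2 scale (adjusted p = 0.00027). The same difference was 0.91 ± 0.46 for Serpina3n (adjusted p = 0.25), which passed with cardiomyocyte and non-myocyte pools of 1 number as a replicate block (0.97, adjusted p = 0.0023). Serpina3i, which shares the most 50-base runs with Serpina3h, followed it, with a difference of 2.05 ± 0.55 (adjusted p = 0.022) that did not pass without WT vehicle cardiomyocyte replicate 1 (1.91) or 3 (1.83) or without WT vehicle non-myocyte replicate 1 (1.88). With the Serpina3 reads summed the difference was 1.01 ± 0.43 and did not pass (adjusted p = 0.16).

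Read against Serpina3n in the same library, PLNR9C cardiomyocytes with vehicle held 12.97 to 20.99 Serpina3h reads per 100 Serpina3n reads and WT cardiomyocytes 4.62 to 11.2. Non-myocytes with vehicle held 1.398 to 1.916 in PLNR9C and 1.94 to 5.99 in WT. Ventricles with vehicle held 23.4 to 34.1 in PLNR9C against 13.82 to 14.04 in WT at 8 weeks, and 6.56 to 7.33 in PLNR9C against 6.08 to 13.5 in WT at 20 weeks. The ratio was therefore higher in PLNR9C than in WT in ventricle at 8 weeks and in cardiomyocytes, and not in ventricle at 20 weeks or in non-myocytes. These ratios compare raw reads of 2 genes of different length and are a description only.

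JQ1 was followed by calls among the Serpina3 genes in 3 settings, namely WT ventricles at 20 weeks, PLNR9C non-myocytes and, for Serpina3g alone, PLNR9C ventricles at 8 weeks. In WT ventricles at 20 weeks 5 of 8 copies fell, namely Serpina3n (-0.67 ± 0.14, adjusted p = 0.003), Serpina3c (-1.31 ± 0.26), Serpina3i (-1.52 ± 0.35), Serpina3h (-0.99 ± 0.28) and Serpina3g (-0.75 ± 0.23). Of all genes tested there, 27.2% passed, 12.3% higher and 14.9% lower. All 3 JQ1-treated WT ventricles had less Serpina3n than any vehicle-treated one. Serpina3i had 4, 7 and 5 reads there with JQ1 and 22, 13 and 14 with vehicle, so its fall rests on few reads. The Serpina3h call was lost without WT JQ1 replicate 2 (-0.96) or 3 (-0.87) or vehicle replicate 1 (-0.73), and the Serpina3g call without any 1 library other than vehicle replicate 2 (-0.79 to -0.60). In PLNR9C ventricles at 20 weeks 0 of 8 copies passed, where 31.9% of all genes did, and Serpina3n was 0.29 ± 0.13 with JQ1 (adjusted p = 0.1). The difference between the JQ1 effects in PLNR9C and in WT was 0.95 ± 0.19 for Serpina3n (adjusted p = 0.051), 1.67 ± 0.39 for Serpina3i (adjusted p = 0.083) and 1.24 ± 0.33 for Serpina3h (adjusted p = 0.15). In edgeR 0 of 24 serpins passed this test, where 0.357% of all genes did and 7 serpins had an unadjusted p under 0.05. DESeq2 called 3, which were Serpina3n (0.94, adjusted p = 0.00051), Serpina3h (1.22, adjusted p = 0.013) and Serpina3i (1.67, adjusted p = 0.049), and the summed Serpina3 reads passed in edgeR (0.98 ± 0.17, adjusted p = 0.027). The count was 1 without PLNR9C vehicle replicate 1 or 2.

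In PLNR9C non-myocytes 3 of 9 copies fell with JQ1 and 0 rose. That share was near the 36.2% of all genes that passed there, 16.7% higher and 19.5% lower. There Serpina3h had 14.6, 16.9 and 16.04 CPM with JQ1 against 32.8, 29.8 and 50.8 CPM with vehicle, and fell by 1.25 ± 0.24 on the log2 scale (adjusted p = 0.0017). Serpina3i had 2.19, 3.34 and 3.32 CPM with JQ1 against 5.75, 5.64 and 10.6 CPM with vehicle, and fell by 1.32 ± 0.30 (adjusted p = 0.0039). Every treated library lay below every untreated one for both genes. Neither fall passed with the Serpina3 reads summed (-0.31, adjusted p = 0.33), a sum made up mostly of Serpina3n. Serpina3g fell by 0.41 ± 0.15 (adjusted p = 0.045) with overlapping groups, a call lost in DESeq2 (adjusted p = 0.054), with only those 6 libraries (adjusted p = 0.083) and without JQ1 replicate 1 (-0.24) or 2 (-0.43) or vehicle replicate 1 (-0.37) or 3 (-0.32). Serpina3n had -0.30 ± 0.25 there (adjusted p = 0.39), with overlapping groups. With JQ1 the genotypes differed by 0.58 ± 0.26, adjusted p = 0.14, for Serpina3h and by 1.08 ± 0.36, adjusted p = 0.054, for Serpina3i, the only 2 of 9 copies not called between JQ1-treated PLNR9C and WT non-myocytes. The JQ1 effect on Serpina3h was -1.42 ± 0.36 in PLNR9C relative to WT and did not pass (adjusted p = 0.29), although it did in DESeq2 (-1.43, adjusted p = 0.035). In edgeR 0 of 25 serpins passed that test in non-myocytes (0% of all genes, 3 serpins at an unadjusted p under 0.05). In cardiomyocytes and in ventricles at 8 weeks 0 serpins passed it as well (0% and 0.00645% of all genes), with 3 and 2 serpins at an unadjusted p under 0.05 and 0 in DESeq2. At 8 weeks Serpina3g fell with JQ1 in PLNR9C ventricles (-0.66 ± 0.23, adjusted p = 0.034), a call lost when any 1 of the 6 libraries was left out (-0.72 to -0.54).

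Genes known to stand around the Serpina3 proteins were taken from lists. Of acute phase and interleukin-6 family genes, which include inducers of the acute phase, 15 of 24 were tested at 20 weeks and 8 rose and 1 fell in PLNR9C with vehicle, where 44.7% of all genes passed, 23.3% higher and 21.4% lower. Among those that rose were Socs3, a STAT-induced feedback inhibitor (1.70 ± 0.18), and Il1r1, the interleukin-1 receptor (0.86 ± 0.13). Lifr, a receptor of the interleukin-6 family, fell (-0.77 ± 0.09). The median of the list was 0.86. In non-myocytes 7 of 18 rose and 0 fell, where 18.6% of all genes passed, led by Hp, which encodes haptoglobin (4.54 ± 0.43). JQ1 in PLNR9C ventricles at 20 weeks was followed by 2 of 15 rising and 3 falling, a share near the 31.9% of all genes that passed. Of 10 cysteine cathepsins, the protease family in which Serpina3g has targets, 7 rose and 0 fell at 20 weeks in PLNR9C with vehicle. Among them were Ctsz (1.51 ± 0.09), Ctsk (2.19 ± 0.17) and Ctss (2.12 ± 0.16), and the list median was 0.71. The list was not limited to known targets of Serpina3g. Ctss is abundant in macrophages, whose markers rose with it.

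The Serpinb genes encode serpins that act inside cells. Serpinb6b fell with JQ1 in 6 and Serpinb9 in 7 of the 8 comparisons of JQ1 with vehicle. Serpinb6b, a copy of the cathepsin G inhibitor Serpinb6a, had 39.2, 44.6 and 37.1 CPM with JQ1 and 72.6, 81.5 and 63.3 CPM with vehicle in PLNR9C ventricles at 8 weeks. In WT ventricles it had 39.9, 41.6 and 36.3 CPM with JQ1 and 58.4, 63.4 and 56.4 CPM with vehicle. Treated and untreated ventricles did not overlap in either genotype. The log2 fold change with JQ1 at 8 weeks was -0.84 ± 0.09, adjusted p = 1.8e-06, in PLNR9C and -0.60 ± 0.09, adjusted p = 7.9e-05, in WT, and at 20 weeks it was -0.52 ± 0.12, adjusted p = 0.005, in PLNR9C and -0.75 ± 0.13, adjusted p = 0.00049, in WT. PLNR9C cardiomyocytes had 52.4, 44.8 and 52.1 CPM with JQ1 against 94.03, 82.4 and 74.6 CPM with vehicle (-0.75 ± 0.13, adjusted p = 0.0061), a call lost when only those 6 libraries were fitted (-0.73, adjusted p = 0.058). PLNR9C non-myocytes had 6.84, 6.38 and 6.85 CPM with JQ1 against 14.03, 10.4 and 15.7 CPM with vehicle (-0.997 ± 0.23, adjusted p = 0.0041), and with the reads of the Serpinb6 copies summed, most of which are Serpinb6a there, the change was -0.04 (adjusted p = 0.75). WT cells of either fraction did not pass, at -0.20 ± 0.13 in cardiomyocytes and 0.08 ± 0.22 in non-myocytes, and the difference between genotypes did not pass either (adjusted p = 0.73 and 0.33). In WT non-myocytes the cardiomyocyte markers summed to 6485 to 8188 CPM with JQ1 and 2534 to 3912 CPM with vehicle (6 of 8 called higher), and in PLNR9C non-myocytes to 1175 to 3927 CPM with JQ1 and 1659.7 to 2179 CPM with vehicle (0 of 8 called). With JQ1, 38% of all genes passed in WT non-myocytes (18% higher) and 36.2% in PLNR9C non-myocytes (16.7% higher). The part of carried-over cardiomyocytes in the Serpinb6b level of non-myocytes, including its difference between JQ1-treated genotypes, was not tested. Between genotypes with vehicle Serpinb6b rose in PLNR9C by 0.29 ± 0.09 at 8 weeks, 0.45 ± 0.12 at 20 weeks and 0.60 ± 0.13 in cardiomyocytes. The call at 8 weeks was lost without PLNR9C vehicle replicate 1 (0.29) or 2 (0.19) or WT vehicle replicate 1 (0.27) or 3 (0.25).

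Serpinb9, the intracellular inhibitor of granzyme B in mice, fell with JQ1 in PLNR9C in all 4 experiments. In non-myocytes it had 16.04, 16.7 and 12.7 CPM with JQ1 and 41.8, 41.02 and 26.8 CPM with vehicle in PLNR9C, and 18.1, 17.1 and 16.1 CPM with JQ1 and 36.8, 38.1 and 29.8 CPM with vehicle in WT. Treated and untreated libraries did not overlap in either genotype, and the log2 fold change was -1.27 ± 0.17, adjusted p = 9.1e-05, in PLNR9C and -1.03 ± 0.17, adjusted p = 0.0004, in WT. In PLNR9C cardiomyocytes it had 12.1, 11.6 and 12.3 CPM with JQ1 and 17.7, 25.2 and 37.04 CPM with vehicle (-1.15 ± 0.23, adjusted p = 0.01), a call lost with only those 6 libraries (-1.12, adjusted p = 0.07), and WT cardiomyocytes did not pass (-0.29 ± 0.24, adjusted p = 0.55). Ventricles also had falls, of -0.48 ± 0.12, adjusted p = 0.0056, in PLNR9C and -0.44 ± 0.13, adjusted p = 0.012, in WT at 8 weeks, and by -0.39 ± 0.12, adjusted p = 0.017, in PLNR9C and -0.60 ± 0.12, adjusted p = 0.0013, in WT at 20 weeks. The WT call at 8 weeks was lost without WT JQ1 replicate 1 (-0.35) or WT vehicle replicate 3 (-0.28), and the PLNR9C call at 20 weeks without PLNR9C JQ1 replicate 1 (-0.37) or 2 (-0.30) or vehicle replicate 3 (-0.30). Between genotypes with vehicle Serpinb9 rose in PLNR9C cardiomyocytes (0.91 ± 0.23, adjusted p = 0.011), and not without WT vehicle replicate 3 (0.73), and did not pass in the other 3 experiments. Of 15 granzymes and leukocyte serine proteases, 1 or 2 per experiment had enough reads to be tested. At 20 weeks with vehicle Mcpt4, a mast cell protease, rose in PLNR9C (1.72 ± 0.66) and Gzmm, a granzyme, fell (-1.05 ± 0.17). The 8 lymphocyte markers in PLNR9C ventricles at 20 weeks summed to 14.7 to 19.8 CPM with JQ1 and 1.47 to 3.18 CPM with vehicle, and in PLNR9C cardiomyocytes to 8.75 to 46.95 CPM with JQ1 and 0.849 to 4.87 CPM with vehicle. WT ventricles at 20 weeks likewise had 12.25 to 26.3 CPM with JQ1 and 1.47 to 1.69 CPM with vehicle. WT cardiomyocytes had 22.2 to 35.7 CPM with JQ1 and 1.29 to 4.25 CPM with vehicle. A single marker carried both PLNR9C sums: Cd3e, a subunit of the T cell receptor complex, rose with JQ1 (4.61 ± 0.35 in PLNR9C ventricles and 3.89 ± 0.78 in PLNR9C cardiomyocytes), with means of 15.8 CPM with JQ1 and 0.607 CPM with vehicle in PLNR9C ventricles. The other marker tested in ventricles, Cd79a, did not pass (-0.12 ± 0.62), and the remaining 6 there and 7 in cardiomyocytes had too few reads to be tested. In PLNR9C non-myocytes 3 of 6 tested fell and 0 rose with JQ1, and the sum was 4.28 to 5.52 CPM against 10.4 to 10.9 CPM with vehicle. There 36.2% of all genes passed, 16.7% higher and 19.5% lower. In PLNR9C cardiomyocytes 3 of the 8 markers had 0 reads in every library with JQ1 and 2 of 8 in every library with vehicle. Their part in the Serpinb9 level was not tested.

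**Figure D3:**
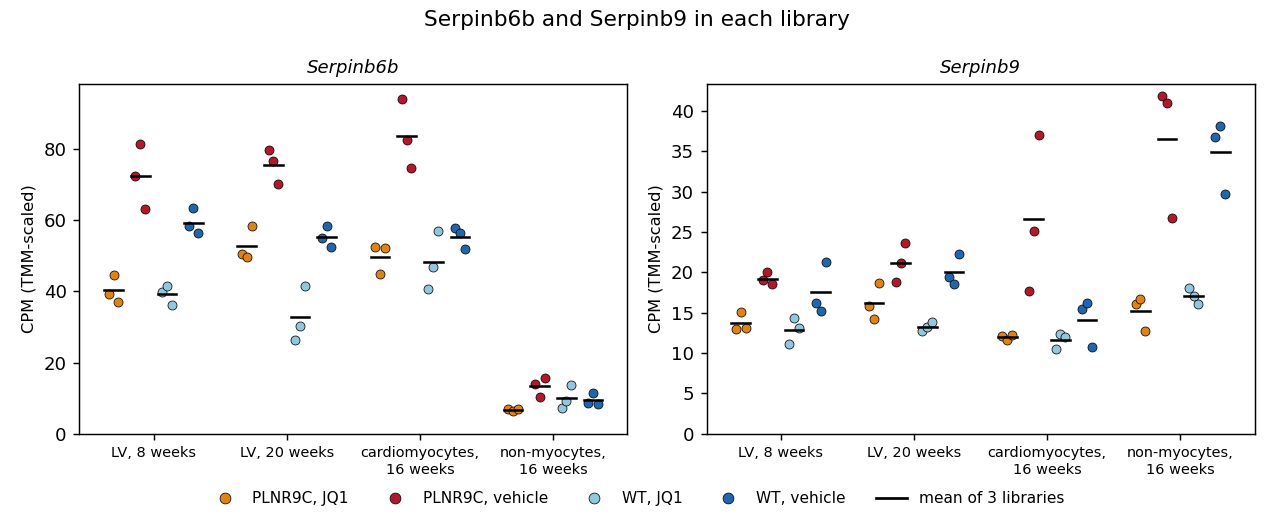
Level of Serpinb6b and Serpinb9 in each library (points, TMM-scaled CPM, axes from 0) by experiment and group, with lines at the mean of 3 libraries. JQ1-treated PLNR9C libraries lie below vehicle-treated ones for both genes in all 4 experiments, and Serpinb6b is low in non-myocytes, at 6.38 to 15.7 CPM.

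The remaining Serpinb genes were called mostly between genotypes. Serpinb6a, whose model overlaps Nqo2 and Ripk1 on the opposite strand, had 89.7, 93.5 and 114 CPM in PLNR9C cardiomyocytes with vehicle and 47.2, 53.4 and 51.01 CPM in WT cardiomyocytes (0.97 ± 0.11, adjusted p = 8e-05). It had 105, 90.5 and 88.3 CPM in PLNR9C ventricles with vehicle at 20 weeks and 57.5, 53.05 and 55.8 CPM in WT ventricles (0.77 ± 0.07, adjusted p = 1.5e-07). The genotypes were apart in both sets. Non-myocytes with vehicle had 193, 192 and 195 CPM in PLNR9C and 153, 155 and 165 CPM in WT, and ventricles at 8 weeks 58.1, 53.3 and 56.1 CPM in PLNR9C and 48.1, 49.8 and 53.5 CPM in WT. In non-myocytes the change was 0.29 ± 0.08, adjusted p = 0.022, lost without WT vehicle replicate 1 (0.28) or 2 (0.30), and at 8 weeks 0.15 ± 0.07, adjusted p = 0.16. The genotype effect in cardiomyocytes exceeded that in non-myocytes by 0.63 ± 0.13 (adjusted p = 0.0045). With JQ1 in WT ventricles at 20 weeks it fell by 0.24 ± 0.07 (adjusted p = 0.025), a call lost without any 1 library other than vehicle replicate 2 (-0.23 to -0.20). Serpinb1a, an inhibitor of neutrophil elastase and cathepsin G, had 3.904, 1.73 and 1.65 CPM in PLNR9C cardiomyocytes with vehicle against 0.443, 0.861 and 0.946 CPM in WT (1.68 ± 0.45, adjusted p = 0.016), lost without PLNR9C vehicle replicate 1 (1.17) or WT vehicle replicate 1 (1.41). At 20 weeks it had 3.25, 2.57 and 3.79 CPM in PLNR9C and 2.08, 1.51 and 1.57 CPM in WT with vehicle and rose by 0.89 ± 0.23, adjusted p = 0.0047. Neither ventricles at 8 weeks (0.20 ± 0.27, adjusted p = 0.69) nor non-myocytes (-0.18 ± 0.20, adjusted p = 0.6) passed, at 2.38, 1.62 and 1.604 CPM in PLNR9C against 2.05, 1.51 and 1.39 CPM in WT at 8 weeks and 5.49, 6.18 and 4.35 CPM in PLNR9C against 5.59, 6.01 and 6.52 CPM in WT non-myocytes.

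Serpinb1c, a copy of Serpinb1a, had 2.76, 3.96 and 1.997 CPM in PLNR9C ventricles with JQ1 at 20 weeks, 4.79, 7.07 and 6.37 CPM in PLNR9C with vehicle, 0.103, 0.181 and 0.0488 CPM in WT with JQ1 and 0.303, 0.844 and 0.659 CPM in WT with vehicle. It was higher in every PLNR9C ventricle than in any WT ventricle and lower with JQ1 than with vehicle in both genotypes. With vehicle it rose in PLNR9C by 3.33 ± 0.33, adjusted p = 2.7e-07, at 20 weeks and by 2.96 ± 0.46, adjusted p = 0.00061, in cardiomyocytes. JQ1 lowered it by 1.05 ± 0.26 in PLNR9C (adjusted p = 0.0056) and 2.35 ± 0.61 in WT (adjusted p = 0.0083) at 20 weeks. In PLNR9C cardiomyocytes the change with JQ1 was -1.39 ± 0.40, adjusted p = 0.042, lost with a replicate block by number (-1.35, adjusted p = 0.058), without JQ1 replicate 1 (-1.21) or 2 (-1.26) or vehicle replicate 1 (-0.93) or 2 (-1.59), with only those 6 libraries (-1.36) and with Serpinb1 copies summed (-0.99). Serpinb8, known in humans as an inhibitor of furin, was under 6 CPM in every ventricle and reached 18.2 CPM in non-myocytes. It fell with JQ1 in WT non-myocytes (-0.84 ± 0.29, adjusted p = 0.037) with overlapping groups, a call lost without JQ1 replicate 1 (-0.69) or 2 (-0.61) or vehicle replicate 1 (-0.90) or 2 (-0.66). Serpinb9b, a copy of Serpinb9, stayed under 2 CPM in every library; in ventricles at 20 weeks it was called higher in PLNR9C with vehicle (1.95 ± 0.61, adjusted p = 0.014) and lower with JQ1 in PLNR9C (-2.32 ± 0.60, adjusted p = 0.0071).

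Serpine2, which encodes protease nexin 1, an inhibitor of thrombin and urokinase, had 69.9, 48.7 and 65.1 CPM in PLNR9C ventricles with vehicle at 20 weeks and 20.3, 20.6 and 23.6 CPM in WT ventricles (1.51 ± 0.13, adjusted p = 1.6e-07). It had 324, 234 and 280.0 CPM in PLNR9C non-myocytes with vehicle against 153, 137 and 140.2 CPM in WT (0.96 ± 0.13, adjusted p = 0.00024). The genotypes were apart in both. They were also apart in cardiomyocytes, at 22.6, 14.4 and 16.3 CPM in PLNR9C and 5.23, 6.37 and 3.03 CPM in WT, where the change was 1.85 ± 0.40, adjusted p = 0.0059. At 8 weeks PLNR9C ventricles had 24.3, 22.9 and 26.05 CPM and WT ventricles 16.6, 21.4 and 17.01 CPM, a change of 0.41 ± 0.13, adjusted p = 0.044, a call lost when any 1 of the 6 libraries other than WT vehicle replicate 2 was left out (0.34 to 0.45). No JQ1 effect on Serpine2 passed. Of 8 tested genes of plasminogen activation, 3 rose and 1 fell in PLNR9C at 20 weeks, among them Lrp1, the receptor that clears serpin complexes (1.05 ± 0.13), and Anxa2 (1.04 ± 0.14) and S100a10, which bind plasminogen together (0.86 ± 0.14), and the list median was 0.62. That share was near the 44.7% of all genes that passed. With JQ1 in PLNR9C non-myocytes 2 of 8 rose and 1 fell, Plau, which encodes urokinase (-1.32 ± 0.16), with a list median of 0.32, where 36.2% of all genes passed. Of 15 tested genes of thrombin, factor X and protein C, 6 rose and 1 fell in PLNR9C at 20 weeks, led by Vwf (1.19 ± 0.14) and Pros1 (0.64 ± 0.09), and 0 rose and 4 fell with JQ1 in PLNR9C, including F3, which encodes tissue factor (-0.79 ± 0.11). The share was near that of all genes for genotype (44.7%) and below it for JQ1 (31.9%). The plasma serpins of clotting were near the limit of detection: Serpinc1 (antithrombin) and Serpind1 (heparin cofactor II) stayed under 3 CPM in every library and Serpinf2 (alpha-2-antiplasmin) under 4 CPM. Serpinc1 was called higher with JQ1 in PLNR9C ventricles at 20 weeks (1.55 ± 0.58, adjusted p = 0.048), at 0.769, 0.452 and 0.527 CPM with JQ1 and 0.134, 0.367 and 0.0972 CPM with vehicle, and its model overlaps Zbtb37 on the opposite strand.

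Serping1, which encodes C1 inhibitor, the brake on complement C1 and on the kallikrein that releases bradykinin, had the highest RPKM of the serpins in PLNR9C ventricles with vehicle at 20 weeks. It had 454, 462 and 519.6 CPM in PLNR9C ventricles with JQ1 at 20 weeks, 474, 418 and 408 CPM in PLNR9C with vehicle, 120.3, 128 and 137 CPM in WT with JQ1 and 123, 156 and 128 CPM in WT with vehicle. The genotypes were far apart, and the change with JQ1 passed in neither. With vehicle at 8 weeks PLNR9C ventricles had 197, 229.8 and 197 CPM and WT ventricles 106, 140.4 and 127 CPM. Cardiomyocytes had 166, 125 and 169 CPM in PLNR9C and 38.8, 48.6 and 32.7 CPM in WT, and non-myocytes had 2443, 2189 and 2605 CPM in PLNR9C and 1080.0, 1131 and 1099 CPM in WT. PLNR9C lay above WT without overlap in each. With vehicle the log2 fold change was 0.74 ± 0.12, adjusted p = 0.0014, at 8 weeks, 1.67 ± 0.09, adjusted p = 2.9e-10, at 20 weeks, 1.94 ± 0.36, adjusted p = 0.0028, in cardiomyocytes and 1.13 ± 0.16, adjusted p = 0.00038, in non-myocytes. At 8 weeks WT ventricles had 182, 169 and 149.7 CPM with JQ1 and 106, 140.4 and 127 CPM with vehicle, a rise of 0.42 ± 0.12, adjusted p = 0.019, lost without JQ1 replicate 1 (0.35) or 2 (0.41) or vehicle replicate 1 (0.32). With JQ1 the genotypes at 8 weeks then differed by 0.28 ± 0.12, adjusted p = 0.22, and the test of JQ1 effect between genotypes gave -0.46 ± 0.17, adjusted p = 0.84. Of 12 tested C1 inhibitor targets and complement genes, 9 rose and 0 fell in PLNR9C at 20 weeks, among them C4b (3.08 ± 0.09), C1qa (1.54 ± 0.10) and C1qb (1.69 ± 0.12), with a list median of 1.60. In that comparison 44.7% of all genes passed, 23.3% higher and 21.4% lower. C1qa and C1qb are also on the macrophage list. The bradykinin receptor gene Bdkrb2 fell with JQ1 in PLNR9C in all 4 experiments (-2.70 ± 0.37 in ventricles at 8 weeks, -2.53 ± 0.36 in ventricles at 20 weeks, -2.62 ± 0.46 for cardiomyocytes and -1.71 ± 0.42 for non-myocytes). The tested genes of its list called with JQ1 in PLNR9C were 0 higher and 3 lower of 12 at 8 weeks, 2 higher and 2 lower of 12 at 20 weeks, 0 higher and 1 lower of 10 in cardiomyocytes and 1 higher and 3 lower of 12 in non-myocytes, where 33.1%, 31.9%, 10.5% and 36.2% of all genes passed.

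Serpinf1 fell with JQ1 in PLNR9C ventricles at 20 weeks, a call that remained under every alternative run for it. It had 46.4, 52.1 and 51.8 CPM with JQ1 and 78.7, 81.4 and 75.1 CPM with vehicle in PLNR9C, against 14.01, 10.7 and 13.6 CPM with JQ1 and 15.8, 15.6 and 15.2 CPM with vehicle in WT. The 4 groups of 3 did not overlap between genotypes, and within PLNR9C every treated ventricle lay below every untreated one. It rose in PLNR9C with vehicle by 2.34 ± 0.10, adjusted p = 1e-11, which is 5.05-fold, and fell with JQ1 in PLNR9C by 0.65 ± 0.09 (adjusted p = 3.9e-05). Cardiomyocyte markers were higher with JQ1 in those ventricles, at 50138 to 54651 CPM against 37810.0 to 42777 CPM with vehicle (6 of 8 called higher), and fibroblast markers summed to 3988 to 4347 CPM with JQ1 and 3778 to 4191 CPM with vehicle (1 of 8 called higher and 1 lower). Of all genes 31.9% passed there, 15.9% higher and 16.1% lower. The part of these cells in the Serpinf1 level was not tested. In WT the change with JQ1 was -0.28 ± 0.10, adjusted p = 0.044, lost with other size factors, in DESeq2, with a replicate block by number (-0.28, adjusted p = 0.054), with only those 6 libraries and without JQ1 replicate 2 (-0.16) or vehicle replicate 1 (-0.26), 2 (-0.28) or 3 (-0.29), and the test between genotypes gave -0.36 ± 0.13, adjusted p = 0.32. At 8 weeks PLNR9C ventricles with vehicle had 21.6, 21.7 and 19.96 CPM and WT ventricles 13.7, 15.5 and 21.8 CPM, which overlapped (0.31 ± 0.17, adjusted p = 0.28). With vehicle, cardiomyocytes had 25.8, 15.7 and 20.4 CPM in PLNR9C and 4.43, 4.04 and 3.31 CPM in WT, and non-myocytes had 358, 275 and 353 CPM in PLNR9C and 141, 148 and 137 CPM in WT. In these cells it rose in PLNR9C by 2.39 ± 0.39, adjusted p = 0.0011, in cardiomyocytes and 1.21 ± 0.17, adjusted p = 0.00034, in non-myocytes, and JQ1 passed in neither (adjusted p = 0.38 and 0.12 in PLNR9C). In PLNR9C cardiomyocytes with JQ1, Serpinf1, Serpine2 and Serping1 were all highest in replicate 2, at 48.01, 47.1 and 471 CPM, and that library also had the highest fibroblast markers of its group, 3968 CPM against 1353 and 2432 CPM.

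**Figure D4:**
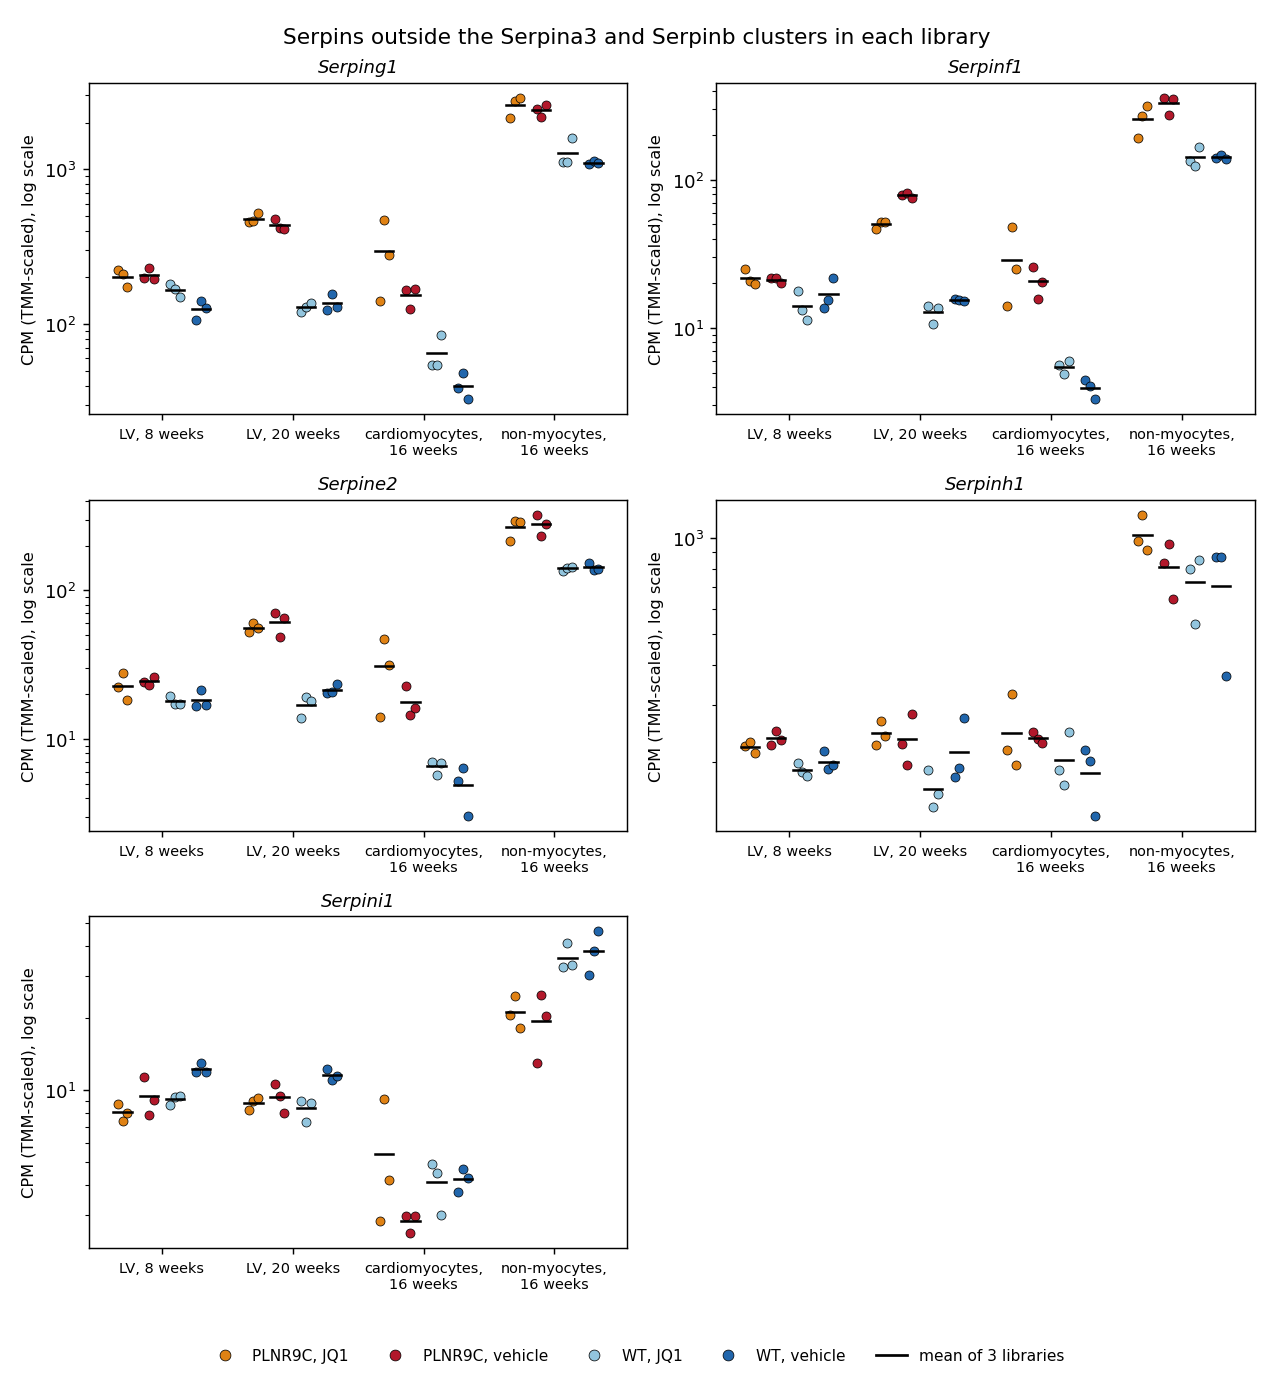
Level of 5 serpins in each library (points, TMM-scaled CPM on log axes) by experiment and group, with lines at the mean of 3 libraries. Serping1, Serpinf1 and Serpine2 are higher in PLNR9C than in WT at 20 weeks and in both fractions, Serpinh1 overlaps between genotypes at 20 weeks with vehicle, and Serpini1 is lower in PLNR9C non-myocytes.

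Serpinh1 did not pass between genotypes at 20 weeks with vehicle. At 20 weeks it had 227, 196 and 283 CPM in PLNR9C ventricles with vehicle and 180.2, 192 and 274 CPM in WT ventricles, which overlapped (0.13 ± 0.18, adjusted p = 0.59). Between JQ1-treated hearts at 20 weeks the difference was 0.58 ± 0.18, adjusted p = 0.023, lost without PLNR9C JQ1 replicate 2 (0.51) or 3 (0.59) or WT JQ1 replicate 2 (0.49) or 3 (0.55). At 8 weeks it had 225, 250.4 and 234 CPM in PLNR9C and 217, 189.7 and 195 CPM in WT with vehicle, without overlap. There it rose by 0.24 ± 0.06, adjusted p = 0.017, with vehicle, a call lost without PLNR9C vehicle replicate 2 (0.20) or WT vehicle replicate 2 (0.20) or 3 (0.22), and by 0.24 ± 0.06, adjusted p = 0.03, with JQ1, lost without PLNR9C JQ1 replicate 1 (0.24) or 2 (0.22) or WT JQ1 replicate 2 (0.24) or 3 (0.21). Cardiomyocytes with vehicle had 248, 236 and 229 CPM in PLNR9C and 218, 202 and 136 CPM in WT (0.36 ± 0.21, adjusted p = 0.24), and non-myocytes had 831, 953 and 643 CPM in PLNR9C and 871, 870.1 and 371 CPM in WT (0.20 ± 0.29, adjusted p = 0.69). The last of the WT non-myocyte libraries was far below the other 2. All 10 collagen chains of a list drawn up around Hsp47 rose in PLNR9C at 20 weeks with vehicle, including Col1a2 (2.35 ± 0.11), Col5a2 (2.49 ± 0.19) and Col8a1 (2.81 ± 0.22), with a list median of 2.05. Whether Hsp47 binds each of these chains was not tested. Of 16 tested genes of collagen folding and processing, 13 rose and 0 fell, among them Pcolce (1.71 ± 0.08), Adamts2 (2.52 ± 0.12) and P4hb (1.16 ± 0.07). In that comparison 44.7% of all genes passed, 23.3% higher and 21.4% lower. With JQ1 in PLNR9C at 20 weeks 2 of those 16 rose and 8 fell, and 1 of the 10 collagen chains fell. There 31.9% of all genes passed, 15.9% higher and 16.1% lower.

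A pair of serpins ran the other way with genotype. Serpini1, which encodes neuroserpin, an inhibitor of tissue plasminogen activator, had 12.98, 24.8 and 20.3 CPM in PLNR9C non-myocytes with vehicle and 30.2, 37.9 and 45.98 CPM in WT non-myocytes (-0.97 ± 0.22, adjusted p = 0.0082). With JQ1 it had 20.6, 24.7 and 18.2 CPM in PLNR9C and 32.6, 41.2 and 33.1 CPM in WT (-0.75 ± 0.22, adjusted p = 0.031), a call lost without any 1 library other than PLNR9C JQ1 replicate 2 (-0.79 to -0.62). The genotypes did not overlap with either treatment. In WT ventricles it fell with JQ1 at 8 weeks (-0.42 ± 0.13, adjusted p = 0.019) and at 20 weeks (-0.46 ± 0.13, adjusted p = 0.015), calls lost at 8 weeks without JQ1 replicate 1 (-0.38) or vehicle replicate 2 (-0.37) and at 20 weeks without JQ1 replicate 2 (-0.37) or vehicle replicate 1 (-0.41). Serpina1b, a copy of the gene for alpha-1-antitrypsin, had 2.88, 5.09 and 2.84 CPM in PLNR9C non-myocytes with vehicle against 7.54, 6.095 and 9.44 CPM in WT (-1.09 ± 0.27, adjusted p = 0.013). It shares 34.2% of its 50-base runs with other serpins, and the call was lost without PLNR9C vehicle replicate 1 (-0.93) or 3 (-0.93) or WT vehicle replicate 3 (-0.90). Its calls with JQ1 between genotypes (-1.01 ± 0.31) and for JQ1 in WT (-0.78 ± 0.27) were lost without 4 and 5 of 6 single libraries. Vehicle-treated endothelial markers, all 8 detected, were also lower in PLNR9C non-myocytes, at 2899 to 3696 CPM against 4672 to 5656 CPM in WT (6 of 8 called lower). So were mural cell markers, at 1530.4 to 1881 CPM in PLNR9C and 2522 to 3057 CPM in WT (6 of 8 called lower). The 6 Schwann cell and neuron markers summed to 10.1 to 11.3 CPM in PLNR9C and 18.8 to 20.6 CPM in WT, where 1 of them was at 0, and of 4 tested 1 was called higher and 2 lower. Of all genes 18.6% passed between those non-myocytes with vehicle, 10.3% higher and 8.32% lower. The part of endothelial, mural, Schwann and nerve cells in the levels was not tested. Serpina1e, another copy, had too few reads to be tested outside the joint fit of both fractions.

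In vehicle-treated WT hearts most serpins were lower in cardiomyocytes than in non-myocytes. Of 27 serpins tested in the joint fit of both fractions, 3 were higher and 22 lower in cardiomyocytes than in non-myocytes, where 79.5% of all genes passed, 37.3% higher and 42.2% lower. The median of the serpins was -2.25 and that of all genes -0.13. Scaled together, Serpinb6b had 77.7, 76.1 and 70.3 CPM in cardiomyocytes and 6.45, 8.85 and 6.27 CPM in non-myocytes (3.37 ± 0.19, adjusted p = 6.7e-13). With the Serpinb6 copies summed the difference was 0.17 (adjusted p = 0.078), since Serpinb6a ran the other way (-0.81 ± 0.10). Serpinb1c was also higher in cardiomyocytes, with 28 reads in the 3 cardiomyocyte libraries and 2 in the 3 non-myocyte libraries, a ratio of 13.3 per read sequenced (95% counting interval 3.35 to 115, exact binomial, counting error only). The fractions did not overlap for Serpinb6b.

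The steepest falls toward cardiomyocytes were those of Serpinf1 (-4.33 ± 0.33), Serpine2 (-4.03 ± 0.32) and Serping1 (-3.95 ± 0.32). Serping1 had 52.2, 65.5 and 44.3 CPM in WT cardiomyocytes and 810.1, 863 and 829 CPM in WT non-myocytes. Serpina3n was lower in cardiomyocytes by 3.03 ± 0.35, at 13.8, 18.7 and 33.3 CPM against 139.9, 162 and 234 CPM. Serpinh1 also passed (-1.09 ± 0.27, adjusted p = 0.00097) although its fractions overlapped, and Serpina3m was -3.95 without WT vehicle cardiomyocyte replicate 3, against -3.26 with all libraries. The call on Serpinb9 (-0.46 ± 0.21, adjusted p = 0.05) was lost with a replicate block by pool (-0.48, adjusted p = 0.062) and without cardiomyocyte replicate 1 (-0.52) or 3 (-0.30) or non-myocyte replicate 1 (-0.43) or 2 (-0.39). Each fraction held markers of the other: in WT with vehicle the 8 cardiomyocyte markers summed to 77729 to 86819 CPM in cardiomyocytes and 2534 to 3912 CPM in non-myocytes, and the 8 fibroblast markers to 396 to 476 CPM in cardiomyocytes and 17458 to 19288 CPM in non-myocytes. The part of carried-over cells in each serpin level was not tested.

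**Figure D5:**
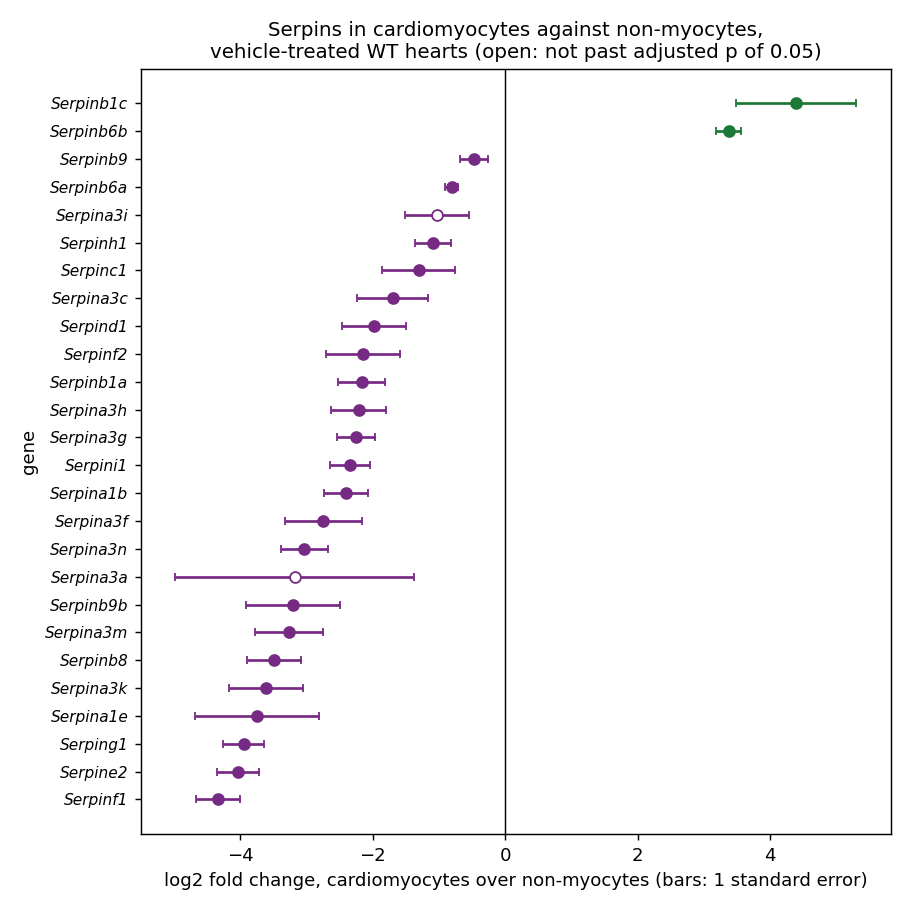
Log2 fold changes of serpins between cardiomyocytes and non-myocytes of vehicle-treated WT hearts (points, with bars of 1 SE), ordered by value. Serpinb1c and Serpinb6b lie right of 0, Serpina3i and Serpina3a (open points) did not pass, and the remaining 22 lie left of 0.

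The effect of genotype with vehicle differed between fractions for 5 of 27 serpins, all with the higher log2 fold change in cardiomyocytes. Of all genes 8.33% passed and 4.09% did so in that direction. Beside Serpina3h, Serpina3i and Serpinb6a these were Serpinb1a (1.80 ± 0.47, adjusted p = 0.018) and Serpinb9b (3.14 ± 0.85, adjusted p = 0.024). Serpinb9b had 30 reads in the 3 PLNR9C and 2 in the 3 WT cardiomyocyte libraries, a ratio of 14.9 (95% counting interval 3.78 to 129), and 48 and 38 reads in non-myocytes, a ratio of 1.31 (0.838 to 2.06). For Serpinb1a the call was lost without PLNR9C vehicle cardiomyocyte replicate 1 (1.30) or WT vehicle cardiomyocyte replicate 1 (1.53). With a replicate block by pool 7 passed, Serpina3n and Serpinf1 (1.11, adjusted p = 0.018) being added, and the count was 2 without WT vehicle cardiomyocyte replicate 1 and 3 without WT vehicle cardiomyocyte replicate 3 or non-myocyte replicate 1. The JQ1 effect in PLNR9C differed between fractions for 0 of 27 serpins in edgeR (2.43% of all genes), with 4 at an unadjusted p under 0.05 and 0 in DESeq2, and for 3 without PLNR9C JQ1 cardiomyocyte replicate 1.

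Per length, in the authors' RPKM, which divides reads by gene length and library size, serpins differed widely in level. In PLNR9C ventricles with vehicle at 20 weeks levels were led by Serping1 (265 ± 28.4, SD, n = 3), Serpina3n (207 ± 50.3) and Serpinh1 (109 ± 20.2), and the libraries of Serping1 and Serpina3n overlapped. In WT ventricles with vehicle they were led by Serpinh1 (83.1 ± 20.5), Serping1 (69.4 ± 9.58) and Serpinb6b (27.9 ± 1.55), with Serpina3n at 18.8 ± 2.99, and the libraries of the first pair overlapped. PLNR9C cardiomyocytes with vehicle were led by Serpina3n (150.0 ± 28.7) and WT cardiomyocytes with vehicle by Serpinh1 (74.01 ± 18.5), with Serpina3n at 7.55 ± 3.31 RPKM there. Non-myocytes were led by Serping1 in both genotypes (1374 ± 103 RPKM in PLNR9C and 638 ± 16.02 RPKM in WT). Of the 63 serpins listed, 36 did not reach the minimum of reads in any table. In the table of purified cells 11 of those 36 had no read at all, and the most reads any of them had in a library was 8.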

How the data were processed

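RNA sequencing libraries of 48 samples in 16 groups of 3 were analysed from 3 tables. Each holds read counts per gene, deposited as raw whole numbers by the authors, beside RPKM values that the authors computed from them. STAR 2.4.1b, GRCm38 and mm10 are named in the submitters' processing notes without their roles, with counting tool, strand setting and dosing schedule not given in the sources used here. Table columns matched sample titles, and 0 other per-sample columns were left.

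The serpins and the lists of partner genes and cell markers were chosen with earlier results of these data known. For each experiment of 12 libraries, and for all 24 cell libraries together, edgeR 4.0.16 (R 4.3.3, filterByExpr, TMM, robust quasi-likelihood fit) gave 22, 24, 21, 25 and 27 tested serpins (8 weeks, 20 weeks, cardiomyocytes, non-myocytes, joint) of 15501, 15971, 14142, 15347 and 15823 genes, with p adjusted by Benjamini-Hochberg across all of them. CPM in the joint fit has its own scale. The fits were tested on simulated data. Alternatives were DESeq2 1.42.0, other size factors, other filters, only the 6 libraries compared, replicate blocks, summed gene copies and each library left out in turn.

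Values per library are given for Serpine2, Serpinh1, Serping1, Serpinf1, Serpina3n, Serpinb1a and Serpinb6a, in part by plots, and for other serpins called with a mean of at least 5 CPM, of which examples are printed. The values of 1 further serpin, which stays in the counts of serpins and in every fit, are not reported here. From each partner list up to 3 called members with the smallest p are named. Within an experiment replicate numbers did not pair libraries (median correlation of deviations from group means between -0.00678 and 0.0116 for same-numbered libraries). Cardiomyocyte and non-myocyte libraries of the same genotype, treatment and number did pair (r of 0.128 to 0.32 in 12 pairs, against at most 0.0561 for other numbers), so a fit with that pool as a replicate block was added after seeing the data. The 50-base runs come from GENCODE M21 transcripts and coding alignments from MAFFT 7.526. Deposited gene starts plus 1 base equalled a GENCODE M21 start for 9588 of 31920 genes.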

Additional observations from a re-analysis of the deposited data

Results flagged for a closer look

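The change between PLNR9C and WT with vehicle differed between purified cardiomyocytes and non-myocytes for 5 serpins, by edgeR's test of that difference over 24 libraries. The log2 difference was 3.31 ± 0.49 for Serpina3h (adjusted p = 0.00027), 2.05 for Serpina3i (adjusted p = 0.022), 1.80 for Serpinb1a (adjusted p = 0.018), 0.63 for Serpinb6a (adjusted p = 0.0045) and 3.14 for Serpinb9b (adjusted p = 0.024). In each case the log2 fold change was higher in cardiomyocytes. The calls on Serpina3i and Serpinb1a were lost without some single libraries. Serpinb9b had 30 reads in PLNR9C and 2 in WT cardiomyocytes with vehicle. With reads of the Serpina3 copies summed the difference was 1.01 (adjusted p = 0.16). PLNR9C cardiomyocytes with vehicle also had higher fibroblast markers (1014 to 1265 CPM, against 396 to 476 CPM in WT), and their part in these differences was not tested.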

How the results depend on the processing

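Of 5031 alternatives to 358 values of single genes, 4818 kept the side of the threshold, 132 lost a call, 79 gained one and 2 reversed. Direction was compared only where the main or the alternative fit made a call, and calls that were kept also kept their direction. With the Serpinb6 copies summed, Serpinb6b between JQ1-treated PLNR9C and WT non-myocytes was 0.40 (adjusted p = 0.0052, against -0.59) and Serpinb6a in cardiomyocytes against non-myocytes was 0.17 (adjusted p = 0.078, against -0.81); the sum counts both genes at once.

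DESeq2 called 3 serpins for JQ1 in PLNR9C ventricles at 8 weeks (edgeR 5), 3 for the difference in JQ1 effect at 20 weeks (edgeR 0), 5 for JQ1 in PLNR9C cardiomyocytes (edgeR 3) and 1 for the difference in JQ1 effect in non-myocytes (edgeR 0). With only the 6 libraries compared, 7 were called for JQ1 in WT ventricles at 20 weeks (against 11) and 0 for JQ1 in PLNR9C cardiomyocytes (against 3, with edgeR and 3 libraries a group). With the replicate number as a block, 1 was called for the difference in JQ1 effect at 20 weeks, where the numbers did not pair the libraries. The cause was not tested.

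With 1 library left out, the count ranged from 9 to 13 for genotype with vehicle and 5 to 10 with JQ1 at 8 weeks, 2 to 6 for JQ1 in PLNR9C at 8 weeks, 6 to 10 for JQ1 in WT and 0 to 1 for the difference in JQ1 effect at 20 weeks, 2 to 7 for JQ1 in PLNR9C cardiomyocytes, 1 to 3 for JQ1 in WT non-myocytes, 2 to 5 for the difference in genotype effect between fractions and 0 to 3 for that in JQ1 effect. Depth limits the plasma serpins and Serpinb9b, which had few reads in every library.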
